A study of Mus musculus with 8 samples.

Results

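The 39 Hox genes were followed in RNA sequencing of mouse embryonic lung at E13.5. Members were the rows of the deposited gene table whose symbol is Hox, a cluster letter from a to d and a number, which leaves out antisense names and gave 39 of 55401 genes: 11 in cluster Hoxa, 10 in Hoxb, 9 in Hoxc and 9 in Hoxd. The mutant group held 4 libraries, written in the labels as Tbx4tetOcre with MyrfE6. The control group held 4 libraries labelled cre control. The labels explain neither the allele nor the construct. They do not give the transgenes of the controls and do not say whether embryos were pooled or litters were separate. P-values therefore measure the spread between these libraries, part of which may be technical. Sex-linked transcripts, given below, differed within each group, so the libraries of a group did not all come from the same material. Tbx4 is a gene of lung mesenchyme, and Myrf encodes a membrane-bound transcription factor that is also made in the mesothelium covering the lung.

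Hox genes encode homeodomain transcription factors that give cells their position along the head to tail axis. They sit in 4 clusters, and members at the same place in different clusters are called a paralog group. Low numbers lie at the end of a cluster that is used first and farthest forward in the embryo, high numbers at the end used later and farther back, and neighbouring genes are often switched on or held silent together by Polycomb and trithorax complexes. Lung forms from the foregut and the mesoderm around it, where genes of the front and middle of the clusters are active. Hoxa5 and Hoxb5 are known for their roles in the shaping of the airways, and loss of Hoxa5 in mice causes severe defects of trachea and lung.

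In the mutant lung, 3 Hox genes fell and none rose. They were Hoxa6, Hoxa7 and Hoxb8, of paralog groups 6 to 8 in the middle of the clusters, and they fell by 37.1%, 43.8% and 44.3%, in that order. The genes with the highest Hox levels in this tissue, Hoxa5, Hoxb5 and Hoxb3, did not pass the threshold, with log2 fold changes of -0.12, 0.02 and -0.17. Genes of paralog groups 9 to 13 had low or no counts, with at most 1.24 CPM in any library (Hoxb9), and none passed the filter for the test.

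Hoxb8 (ENSMUSG00000056648.5, chr11:96281905-96285315, plus strand), Hoxa6 (ENSMUSG00000043219.9, chr6:52206288-52208722, minus strand) and Hoxa7 (ENSMUSG00000038236.8, chr6:52214491-52221854, minus strand) carry the result, so their promoters are shown. Coordinates of genes are those of the deposited table, on build GRCm38. The sequences are from RefSeq, build GRCm38.p6, and run 5′ to 3′ on the strand of the gene from 250 bases before to 50 bases after the start site. Capitals mark matches, on either strand, to short motifs. These are bound by proteins that work with or upstream of Hox proteins, or by MYRF, the protein of the gene named in the genotype.
Hoxb8, chr11:96281655-96281954, plus strand: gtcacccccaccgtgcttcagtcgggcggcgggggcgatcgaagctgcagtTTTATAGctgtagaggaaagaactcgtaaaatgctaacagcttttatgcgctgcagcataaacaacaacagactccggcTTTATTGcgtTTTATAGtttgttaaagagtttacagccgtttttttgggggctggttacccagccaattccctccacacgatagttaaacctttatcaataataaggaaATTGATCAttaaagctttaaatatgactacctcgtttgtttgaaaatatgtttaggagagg
Hoxa6, chr6:52208623-52208922, minus strand: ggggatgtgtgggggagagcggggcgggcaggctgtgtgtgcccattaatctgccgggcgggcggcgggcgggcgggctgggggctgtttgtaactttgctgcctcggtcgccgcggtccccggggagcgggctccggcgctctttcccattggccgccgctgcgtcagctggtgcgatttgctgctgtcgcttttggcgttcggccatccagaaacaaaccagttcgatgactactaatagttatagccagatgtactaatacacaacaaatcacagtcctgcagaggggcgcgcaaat
Hoxa7, chr6:52218524-52218823, minus strand: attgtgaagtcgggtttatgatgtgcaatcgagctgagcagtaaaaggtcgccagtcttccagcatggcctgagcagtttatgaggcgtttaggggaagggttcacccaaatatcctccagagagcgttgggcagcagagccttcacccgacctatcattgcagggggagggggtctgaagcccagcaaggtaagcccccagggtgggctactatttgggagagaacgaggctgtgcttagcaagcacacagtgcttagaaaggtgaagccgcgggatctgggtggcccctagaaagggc
The 4 motifs searched were TGATNNAT for PBX with HOX, TGACAG for MEIS or PKNOX, TTTATNG for CDX and CTGGNAC for MYRF. Of 32851 RefSeq mouse promoters of this length, 8.8% held the PBX-HOX motif, 19.2% the MEIS or PKNOX motif, 10.9% the CDX motif and 19.3% the MYRF motif. The Hoxb8 promoter held 3 CDX matches, which begin 199, 120 and 110 bases before the start site, and 1 PBX-HOX match 11 bases before it. The promoters of Hoxa6 and Hoxa7 held none of the 4 motifs. The RefSeq start of Hoxa7 lies downstream of the gene start in the deposited table. A match is a run of letters, not a site shown to be bound, and a promoter entry was at hand for 22 of the 39 members and 8 of the 16 tested.

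Myrf itself, the gene named in the mutant genotype, was measured at 92.4, 84.4, 85.3 and 91.6 CPM in mutant replicates 1 to 4, against 114, 115.5, 107 and 120.5 CPM in control replicates 1 to 4. CPM are counts per mega-count (M) in genes, with library sizes scaled by edgeR's TMM method. The groups did not overlap, with means of 88.4 ± 4.17 CPM in mutants and 114 ± 5.64 CPM in controls (SD, n = 4 each), a log2 fold change of -0.37 (SE 0.044, edgeR adjusted p = 0.000211).

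Totals ran between 17799899 and 48679134 counts per library, with mutant replicate 2 the deepest. At that depth 3 counts over the 4 libraries of a group correspond to 0.0268 CPM in mutants and 0.0414 CPM in controls, a floor that covers counting error only. Markers of lung epithelium summed to 617 to 667 CPM in mutants and 587 to 645 CPM in controls. Those of lung mesenchyme summed to 1319 to 1407 CPM in mutants and 1352 to 1453 CPM in controls. Of 6 epithelium markers, 1 was called higher at an adjusted p below 0.05 (Sox2, log2 fold change 0.53) and none lower. In that list 4 log2 fold changes were positive and 2 negative. Of 8 mesenchyme markers, 1 was called lower (Wnt2, -0.33) and none higher, with 1 positive and 7 negative. Of all genes tested, 0.564% were called higher and 0.931% lower. The libraries also differ in sex-linked transcripts: mutant replicates 1 and 2 had Y-linked counts and almost no Xist, control replicates 2 and 3 had Xist and almost no Y-linked counts, and the other 4 had both. Summed Y-linked genes were at 133, 143.5, 67.7 and 64.4 CPM in mutant replicates 1 to 4, against 76.6, 0, 0.0565 and 73.1 CPM in control replicates 1 to 4. Principal component 1 placed mutant replicate 4 (-4.12) and control replicate 4 (-4.96) next to each other, between the remaining mutants (12.5 to 23.9) and the remaining controls (-17.7 to -14.5).

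Hox levels in this tissue followed cluster and position. Compared per kilobase of exon, so that genes of different length can be set side by side, cluster Hoxb held 57.1% of the summed Hox level in mutants and 57.1% in controls. Hoxa held 41.6% in mutants and 41.4% in controls, Hoxc 1.02% in mutants and 1.15% in controls, and Hoxd 0.286% in mutants and 0.258% in controls. The 4 clusters had the same order in both genotypes. The sum over Hoxa was 86.2 ± 3.39 CPM per kilobase in mutants and 95.04 ± 5.69 in controls (SD, n = 4 each), and over Hoxb 118 ± 7.61 in mutants and 131 ± 7.75 in controls. All Hox genes together took 0.0581%, 0.0517%, 0.0544% and 0.0571% of the counts in mutant replicates 1 to 4, against 0.0609%, 0.0571%, 0.0593% and 0.0645% in control replicates 1 to 4. These shares of counts overlapped between the groups, and no test was made on sums over chosen members.

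**Figure D1:**
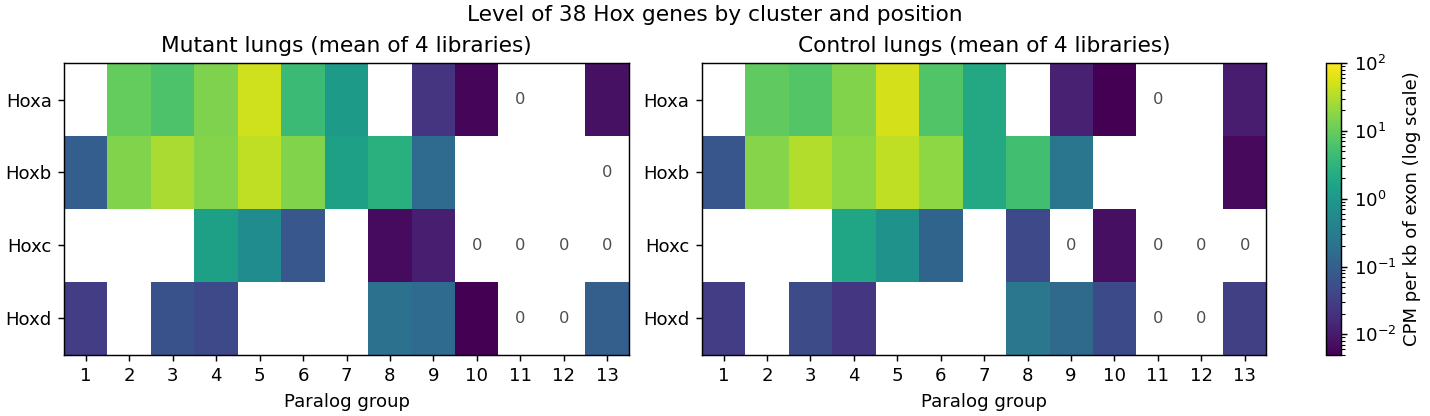
Mean level of 38 Hox genes by cluster (rows) and paralog group (columns), in CPM per kilobase of exon on a log colour scale, with mutant lungs on the left and controls on the right (n = 4 libraries each). A 0 marks a gene with no count, and an empty cell a place with no gene or a gene not shown. Levels were highest in groups 2 to 6 of Hoxa and Hoxb and low from group 9 on.

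The map of levels by cluster and position shows Hoxa5 at the top, with 48.6 ± 2.34 CPM per kilobase in mutants and 52.9 ± 3.48 in controls. Hoxb5 followed with 39.2 ± 2.30 in mutants and 38.7 ± 2.82 in controls, and Hoxb3 with 28.5 ± 1.70 in mutants and 31.9 ± 1.01 in controls. The control libraries of these 3 genes did not overlap with those of the next gene in the order. Hoxb6, Hoxb4, Hoxb2 and Hoxa4 came next, between 14.9 and 15.8 CPM per kilobase in mutants and between 15.4 and 18.6 in controls, and each overlapped with its neighbour in the control order. Hoxa7, Hoxb7 and Hoxc4 were lower still, at 1.12 to 1.40 in mutants and 1.69 to 1.98 in controls. Paralog group 5 alone held 42.7% of the summed level in mutants and 40.3% in controls. Group 6 summed to 19.6 ± 2.45 CPM per kilobase in mutants and 25.4 ± 2.20 in controls (SD, n = 4 each). Group 7 summed to 2.50 ± 0.223 in mutants and 3.92 ± 0.0688 in controls, and group 8 to 2.94 ± 0.185 in mutants and 5.23 ± 0.376 in controls. The library sums did not overlap between the genotypes in 5 of the 13 groups, among them groups 3, 6, 7 and 8. Groups 11 and 12 had no count in any library. The sums of groups 7 and 8 rest mainly on Hoxa7, Hoxb7 and Hoxb8, which are also given singly. No share of such sums over other genes was computed. Group 3 summed to 35.0 ± 1.99 in mutants and 39.0 ± 0.928 in controls.

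The question for each gene was whether its level differed between mutant and control lung. Of the 39 members, 16 had enough counts for the test, 7 in Hoxa, 7 in Hoxb, 2 in Hoxc and none in Hoxd. Of these 16, 3 passed an adjusted p of 0.05 (18.8%), all lower in mutants, where 1.49% of all 15788 genes tested passed, 0.931% of them lower and 0.564% higher (edgeR quasi-likelihood F test, Benjamini-Hochberg). At an unadjusted p below 0.05, 11 of 16 were lower and none higher, against 7.99% lower and 5.89% higher among all genes. In 6 of 16, among them Hoxa3, Hoxa6, Hoxa7, Hoxb3 and Hoxb8, all 4 mutant libraries lay below all 4 controls, against 4.06% of all genes (3.31% higher, and 7.37% in either direction). In total 14 of 16 had a negative log2 fold change, with a median of -0.25, against a median of 0.00 over all genes.

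By position, the 5 tested genes of paralog groups 6 to 8 had log2 fold changes of -0.84 to -0.28 with a median of -0.67, and 3 of them were called. The 11 tested genes of groups 1 to 5 had a median log2 fold change of -0.14, with -0.32 to 0.08 in the 10 described here, and none was called, although 6 had an unadjusted p below 0.05 and DESeq2 called Hoxb3. Across the 16 genes Spearman's rho between paralog group number and log2 fold change was -0.58. It was -0.54 over the 7 genes of Hoxa and -0.79 over the 7 of Hoxb, as a description only, since the genes share libraries and neighbours. Level and position were tied in Hoxb: rho between log2 fold change and mean level was 0.86 there and rho between paralog group and mean level -0.79, so the Hoxb values by position and by level cannot be told apart. In Hoxa rho between paralog group and mean level was 0.07, and rho between log2 fold change and mean level was 0.57. Over all 16 genes rho between log2 fold change and mean level was 0.63, so the genes with lower levels had the more negative values, as did those with higher numbers.

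**Figure D2:**
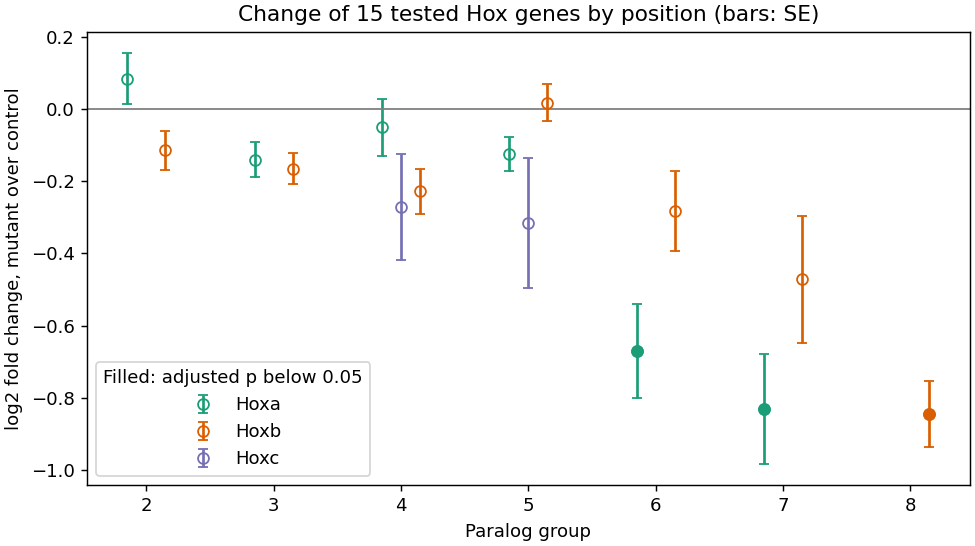
Log2 fold change, mutant over control, of 15 tested Hox genes against paralog group (points, with bars of 1 SE), with filled points for adjusted p below 0.05. Of the 16 tested genes 1 is not drawn, so the plot looks more regular than the rho of -0.58 over all 16. The 3 filled points are Hoxa6, Hoxa7 and Hoxb8, between -0.84 and -0.67, and the points of groups 2 to 5 lie between -0.32 and 0.08.

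Hoxb8, known in mice for the myeloid and microglial lineage and for grooming behaviour, showed the smallest adjusted p of the family. It was measured at 7.93, 7.48, 6.64 and 6.75 CPM in mutant replicates 1 to 4, against 14.3, 11.95, 12.4 and 13.3 CPM in control replicates 1 to 4. The highest mutant lay well below the lowest control. The mean was 7.20 ± 0.611 CPM in mutants and 12.998 ± 1.04 CPM in controls (SD, n = 4 each). Hoxb8 fell by 44.3%, a log2 fold change of -0.84 (SE 0.0909, edgeR adjusted p = 6.18e-05), the rank of 6 by p among all genes tested. In bulk tissue, fewer cells that make a transcript and less of it per cell cannot be told apart, here and for every gene that follows. Among libraries that held Xist as well as Y-linked counts, Hoxb8 was at 6.64 and 6.75 CPM in mutants against 14.3 and 13.3 CPM in controls.

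Hoxa7, which takes part in patterning the thoracic vertebrae, was measured at 2.64, 3.197, 3.07 and 3.996 CPM in mutant replicates 1 to 4, against 6.34, 6.82, 4.69 and 4.91 CPM in control replicates 1 to 4. The groups did not overlap, although mutant replicate 4 and control replicates 3 and 4 lay closest. It fell by 43.8%, a log2 fold change of -0.83 (SE 0.153, edgeR adjusted p = 0.00996), with means of 3.23 ± 0.565 CPM in mutants and 5.69 ± 1.05 CPM in controls (SD, n = 4 each). The call was lost when a Y-linked covariate entered the edgeR fit, with a log2 fold change of -0.79 (adjusted p = 0.0866) for its log2 level and of -0.72 (adjusted p = 0.168) for its linear level, which was added after the data were seen. Among libraries that held Xist as well as Y-linked counts, Hoxa7 was at 3.07 and 3.996 CPM in mutants against 6.34 and 4.91 CPM in controls.

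Hoxa6, its neighbour on the side of Hoxa5 and also a gene of thoracic patterning, was measured at 3.55, 4.16, 3.22 and 3.77 CPM in mutant replicates 1 to 4, against 5.86, 6.43, 4.80 and 6.54 CPM in control replicates 1 to 4. All mutants lay below all controls, with control replicate 3 nearest to them. Hoxa6 fell by 37.1%, a log2 fold change of -0.67 (SE 0.131, edgeR adjusted p = 0.0152), with 3.68 ± 0.394 CPM in mutants and 5.91 ± 0.795 CPM in controls (SD, n = 4 each). The call was lost with the linear Y-linked covariate, at a log2 fold change of -0.81 (edgeR adjusted p = 0.0514), and without control replicate 2, at -0.63 (edgeR adjusted p = 0.0552).

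The other tested genes of groups 6 and 7 lie between these in Hoxb. Hoxb7 was measured at 2.68, 2.23, 1.71 and 1.91 CPM in mutant replicates 1 to 4, against 2.75, 2.48, 3.45 and 3.33 CPM in control replicates 1 to 4. Mutant replicate 1 lay among the controls, and the log2 fold change of -0.47 (SE 0.175) did not pass (edgeR adjusted p = 0.212). Hoxb6 was measured at 35.2, 26.7, 25.6 and 32.9 CPM in mutant replicates 1 to 4, against 38.0, 32.9, 34.3 and 40.5 CPM in control replicates 1 to 4. The groups overlapped at mutant replicates 1 and 4, and its log2 fold change was -0.28 (SE 0.11, edgeR adjusted p = 0.285). Hoxb6 is the highest gene of groups 6 to 8 per kilobase, at 15.3 ± 2.38 in mutants and 18.6 ± 1.77 in controls.

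**Figure D3:**
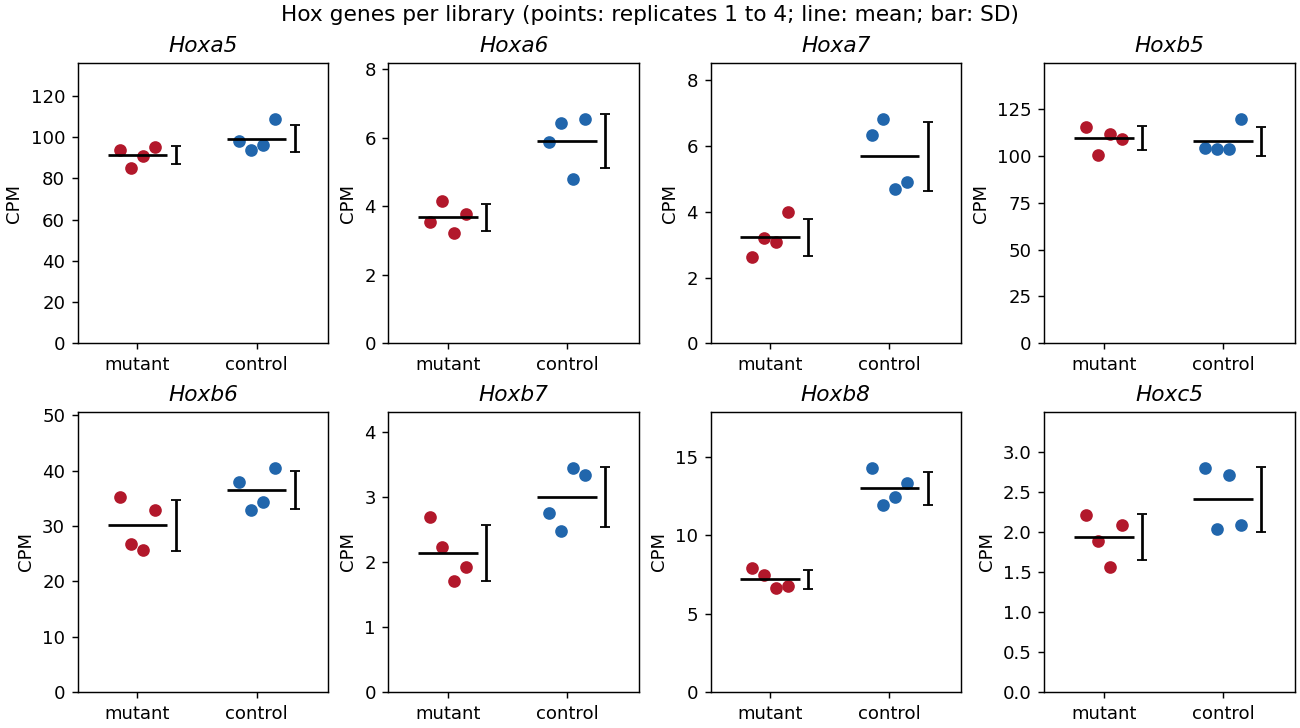
CPM of Hoxa5, Hoxa6, Hoxa7, Hoxb5, Hoxb6, Hoxb7, Hoxb8 and Hoxc5 in each library, with mutants on the left and controls on the right of each panel, points for libraries, lines for means and bars of 1 SD. All mutant points of Hoxa6, Hoxa7 and Hoxb8 lie below all control points, and the points of Hoxa5 and Hoxb5 overlap.

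Set against the group 5 gene of the same cluster in the same library, which needs no scaling between libraries, the same genes stood lower. Hoxb8 counts were 6.86%, 7.44%, 5.93% and 6.19% of Hoxb5 counts in mutant replicates 1 to 4, against 13.8%, 11.5%, 11.97% and 11.1% in control replicates 1 to 4. Hoxa6 counts were 3.79%, 4.88%, 3.54% and 3.96% of Hoxa5 counts in mutants, against 5.98%, 6.84%, 4.98% and 6.01% in controls. Hoxa7 counts were 2.82%, 3.75%, 3.38% and 4.19% of Hoxa5 counts in mutants, against 6.46%, 7.26%, 4.86% and 4.51% in controls. None of these ratios overlapped between the groups, nor did those of Hoxb4, Hoxb6 and Hoxb7 to Hoxb5, whereas Hoxa4 was 26.1% ± 2.38 of Hoxa5 in mutants and 24.7% ± 1.20 in controls (SD, n = 4 each), with overlap. No test was made on these ratios, and no share of such ratios over other genes was computed. Hoxb5 had a log2 fold change of 0.02, and the other tested Hoxb genes had negative ones. Hoxb4, Hoxb6 and Hoxb7 were apart as ratios to Hoxb5 but overlapped between the groups by CPM. The plot of each library along the clusters shows the same genes as steps in single libraries.

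**Figure D4:**
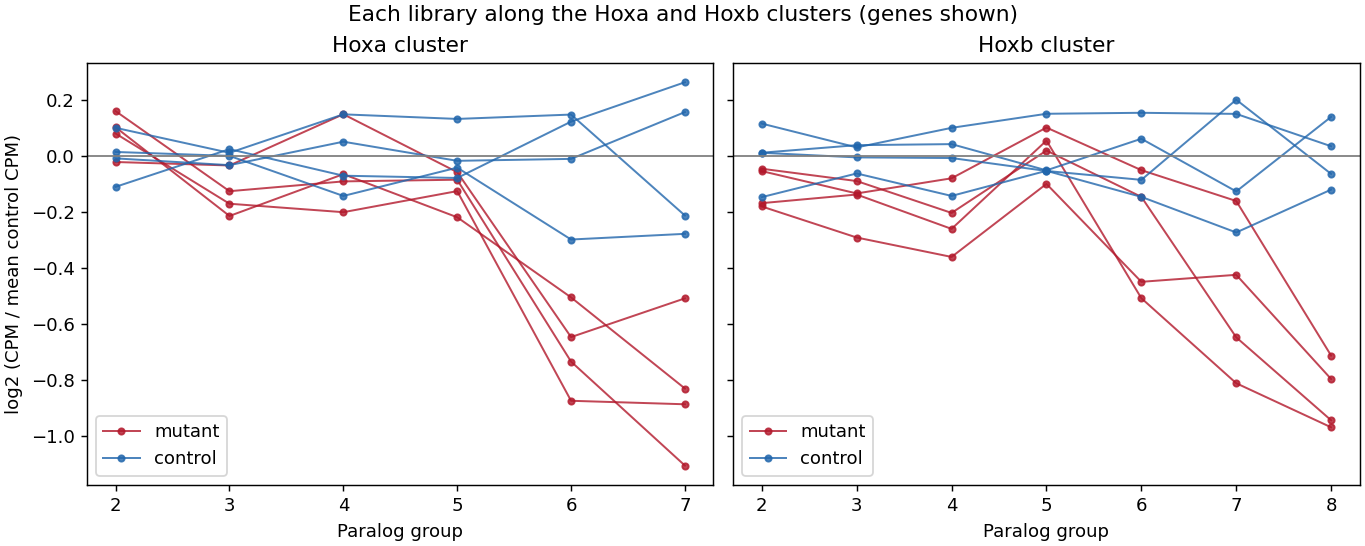
Log2 of each library's CPM over the mean control CPM, along tested genes of Hoxa and Hoxb in the order of their paralog groups, with mutant and control libraries as separate lines. All mutant lines lie below all control lines at Hoxa6, Hoxa7 and Hoxb8 and, by less, at Hoxa3 and Hoxb3. They mix with them at Hoxa2, Hoxa4 and Hoxb5, and at Hoxa5 1 mutant line lies among the controls.

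In group 5, Hoxa5 was measured at 93.6, 85.3, 91.0 and 95.3 CPM in mutant replicates 1 to 4, against 98.0, 94.0, 96.4 and 109 CPM in control replicates 1 to 4. Mutant replicate 4 lay above control replicate 2, and the log2 fold change was -0.12 (SE 0.0479, edgeR adjusted p = 0.234). Hoxb5, known with Hoxa5 for airway branching, was measured at 115.6, 100.5, 112 and 109 CPM in mutant replicates 1 to 4, against 104, 104, 104 and 119.6 CPM in control replicates 1 to 4. Its groups overlapped throughout, with a log2 fold change of 0.02 (SE 0.0521, edgeR adjusted p = 0.92), and control replicate 4 stood above the other controls. Hoxc5 was far lower, at 2.21, 1.89, 1.56 and 2.08 CPM in mutants against 2.80, 2.03, 2.71 and 2.09 CPM in controls, with overlapping groups and a log2 fold change of -0.32 (SE 0.18, edgeR adjusted p = 0.463).

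In group 4, Hoxb4, known for the expansion of blood stem cells, was measured at 44.6, 36.7, 39.4 and 41.0 CPM in mutant replicates 1 to 4, against 48.6, 42.7, 46.9 and 50.6 CPM in control replicates 1 to 4. Mutant replicate 1 lay above control replicate 2, and the log2 fold change of -0.23 (SE 0.0629) did not pass (edgeR adjusted p = 0.0775). Hoxa4 was measured at 23.1, 23.5, 21.4 and 27.2 CPM in mutant replicates 1 to 4, against 25.4, 23.4, 22.3 and 27.2 CPM in control replicates 1 to 4. Its groups overlapped over their whole range, with a log2 fold change of -0.05 (SE 0.0785, edgeR adjusted p = 0.837). Hoxc4 was measured at 4.22, 3.55, 2.73 and 3.88 CPM in mutants against 5.07, 3.89, 4.12 and 4.28 CPM in controls, with overlap and a log2 fold change of -0.27 (SE 0.146, edgeR adjusted p = 0.429).

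In group 3, Hoxb3 was measured at 123, 111, 123 and 127 CPM in mutant replicates 1 to 4, against 139, 129.7, 135 and 138 CPM in control replicates 1 to 4. The groups did not overlap, and the mean was 121 ± 7.22 CPM in mutants and 135.5 ± 4.28 CPM in controls (SD, n = 4 each). The log2 fold change of -0.17 (SE 0.0426) lay just outside the threshold (edgeR adjusted p = 0.0565), and the call was gained with DESeq2 (adjusted p = 0.04997), without the filter on low counts (0.0121) and without mutant replicate 4 (0.0295). Hoxa3, required for thymus and parathyroid, was measured at 38.8, 36.5, 37.6 and 41.3 CPM in mutants against 41.3, 43.0, 42.3 and 42.6 CPM in controls. Mutant replicate 4 lay close under control replicate 1, and the log2 fold change was -0.14 (SE 0.0494, edgeR adjusted p = 0.182).

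Group 2 is best known from the hindbrain and the cranial neural crest. Hoxb2 was measured at 54.9, 50.3, 50.7 and 55.2 CPM in mutants against 57.4, 51.5, 57.4 and 61.7 CPM in controls, with overlap and a log2 fold change of -0.11 (SE 0.0541, edgeR adjusted p = 0.356). Hoxa2, which patterns the hyoid arch, averaged 16.8 ± 0.873 CPM in mutants and 15.9 ± 0.95 CPM in controls (SD, n = 4 each), with overlap and a log2 fold change of 0.08 (SE 0.0714, edgeR adjusted p = 0.669).

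The other 23 members did not pass the filter on low counts. Of these, 6 had no count in any library (Hoxa11, Hoxc11, Hoxc12, Hoxc13, Hoxd11 and Hoxd12), 5 had counts in 1 to 3 libraries and 12 in at least 4. The 5 were Hoxa10, Hoxa13, Hoxb13, Hoxc9 and Hoxc10, with at most 2 counts in any library. For the group of 12 the counts are given as they stand, and libraries differ in depth. All 16 members of groups 9 to 13, which pattern the hindgut, limbs and urogenital tract, were among the 23.

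Hoxb9 had 11, 25, 11 and 3 counts in mutant replicates 1 to 4, against 6, 10, 22 and 7 counts in control replicates 1 to 4. Hoxd8 had 12, 16, 13 and 13 counts in mutants against 10, 8, 24 and 8 in controls. Hoxd9 had 6, 8, 10 and 8 counts in mutants against 2, 2, 11 and 8 in controls. Each overlapped between the groups, and control replicate 3 was the highest control for all 3 genes. Hoxc6 had 5, 9, 1 and 5 counts in mutants against 4, 2, 12 and 3 in controls, and Hoxc8 had 0, 1, 0 and 1 in mutants against 0, 1, 6 and 2 in controls. Hoxd10 had 0, 1, 0 and 0 counts in mutants against 0, 1, 4 and 1 in controls. Control replicate 3 was again the highest in these 3. Over the 19 untested members of groups 6 and above, it held 84 counts, or 4.72 CPM, while the other controls held 1.34 to 1.91 CPM and the mutants 1.62 to 2.30 CPM. What sets control replicate 3 apart was not tested.

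Of the remaining 6, Hoxd13, which patterns digits and genitalia, had 6, 14, 6 and 3 counts in mutant replicates 1 to 4, against 4, 0, 0 and 2 counts in control replicates 1 to 4. Hoxa9 had 4, 3, 6 and 0 counts in mutants against 0, 0, 3 and 2 in controls. Hoxb1, a gene of the hindbrain, had 13, 8, 2 and 2 counts in mutants against 3, 3, 3 and 3 in controls. Each of these overlapped between the groups, and mutant replicate 1 held 13 of the 25 Hoxb1 counts of the mutants. In cluster Hoxd, Hoxd1 had 0, 4, 3 and 0 counts in mutants against 0, 1, 3 and 0 in controls. Hoxd3 had 12, 12, 3 and 3 counts in mutants against 8, 4, 2 and 1 in controls, and Hoxd4 had 2, 6, 3 and 3 in mutants against 0, 1, 3 and 1 in controls. Hoxd3 shares 62.3% and Hoxd4 52.3% of its exon bases with other genes on the same strand, and reads there were not counted, so these levels are too low by an unknown amount. Among tested genes, Hoxa2 shares 267 of its 1775 and Hoxa3 482 of its 6014 exon bases, and Hoxa6, Hoxa7 and Hoxb8 share none. In a fit without the filter, none of the 17 members that it had removed and that held any count passed. Hoxd13 came with a log2 fold change of 1.57 (SE 0.673, edgeR adjusted p = 0.287), and Hoxc8 with -2.48 (SE 1.05, edgeR adjusted p = 0.273), a fitted value that depends on very few counts.

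The clusters also carry miRNA genes of the miR-196 and miR-10 families, and miR-196 is known in mouse embryos to direct the cleavage of Hoxb8 mRNA. The mature sequences are shown because they pair with Hox transcripts, with the seed (bases 2 to 8) in capitals, from RefSeq, build GRCm38.p6. Both miR-196 forms share a seed.
miR-196a-5p, chr11:96265187-96265208, plus strand: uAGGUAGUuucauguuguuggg
miR-196b-5p, chr6:52230129-52230150, minus strand: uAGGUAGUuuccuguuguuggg
Hoxb8 3′ UTR window, with capitals for bases that pair with miR-196a-5p: CCCAACAACATGAAACTgCCTA
Hoxa7 3′ UTR window, with capitals for the seed match: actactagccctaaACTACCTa
Only Watson-Crick pairs (A with U, G with C) were counted. The Hoxb8 window paired at 21 of 22 bases. Among 21193 mouse 3′ UTRs of the GENCODE vM21 annotation it was the only 1 with at least 18. Exact matches to the seed were found in 6 of the 16 tested Hox genes (37.5%) and in 6.8% of all 3′ UTRs. Hoxa7 held 4 of them, and Hoxa6 and Hoxb8 held none. The 1 base of the Hoxb8 window not counted as paired lies within the seed match. It is a G opposite a U, a G-U wobble pair, which an exact search leaves out. The library kit selects messenger RNA and mature miRNAs were not measured, so the part of miR-196 in these values was not tested.

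Polycomb and trithorax proteins hold Hox genes silent or active. Of 33 listed genes, all tested, 25 had a negative log2 fold change, where 50% of all genes were above 0, and the median was -0.03. In mutants 1 was called lower and none higher, where 0.931% of all genes were called lower and 0.564% higher. That gene was Bmi1, which encodes a subunit of Polycomb repressive complex 1, with 48.7, 59.3, 57.3 and 55.9 CPM in mutant replicates 1 to 4, against 68.2, 69.3, 70.4 and 63.5 CPM in control replicates 1 to 4. The groups did not overlap, and Bmi1 fell by 18.3%, a log2 fold change of -0.29 (SE 0.0559, edgeR adjusted p = 0.0147). It lost the call without control replicates 1, 2 or 3, with either Y-linked covariate and with 1 surrogate variable. In these fits its log2 fold change lay between -0.29 and -0.24 and its adjusted p between 0.0501 and 0.239. The most abundant genes of the list, the histone chaperones Rbbp4 and Rbbp7, averaged 495.5 ± 20.2 and 407.5 ± 10.3 CPM in mutants and 498 ± 8.08 and 399 ± 9.26 CPM in controls (SD, n = 4 each), and neither passed.

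The homeodomain proteins of the TALE class bind DNA together with Hox proteins. Of 9 listed genes (Pbx, Meis and Pknox), all tested, none was called, 7 had a negative log2 fold change and the median was -0.03. At an unadjusted p below 0.05 there was 1, where 13.9% of all genes had such a value, and DESeq2 called none. Meis1 averaged 192 ± 6.22 CPM in mutants and 195 ± 9.13 CPM in controls (SD, n = 4 each). Known upstream regulators were scarce: of 8 listed, 3 were tested and none was called, with 1 at an unadjusted p below 0.05. Cdx2 and Cdx4, which act on the middle of the clusters in the embryo's tail, were at 0 in all 8 libraries. Gdf11, a signal that patterns the vertebral column, averaged 32.2 ± 1.54 CPM in mutants and 35.3 ± 1.84 CPM in controls. Its log2 fold change was -0.13 (SE 0.0554, edgeR adjusted p = 0.291).

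Genes embedded in or next to the clusters were read from the same fit. Of 32 listed, 19 were tested, 1 was higher and 1 lower, where 0.564% of all genes were called higher and 0.931% lower. The median log2 fold change was -0.09, and 13 of the 19 were negative, where 50% of all genes were above 0. Whether a change extends along a cluster was not tested. Evx2, a homeobox gene 8753 bases beyond Hoxd13, was measured at 0.867, 0.697, 0.683 and 0.844 CPM in mutant replicates 1 to 4, against 0.37, 0.225, 0.0565 and 0.113 CPM in control replicates 1 to 4. All mutants lay above all controls, and Evx2 rose by 1.95 on the log2 scale (SE 0.409, edgeR adjusted p = 0.0229). Control replicates 3 and 4 lay below the level of 3 counts in those libraries (0.169 and 0.168 CPM). Evx2 kept the call in 11 of 17 alternatives. The call was lost with either Y-linked covariate (edgeR adjusted p = 0.224 for each) and with 1 surrogate variable (0.0663). Leaving out mutant replicate 1, control replicate 2 or control replicate 3 also lost it. Skap2, an adaptor protein gene 143041 bases beyond the front end of Hoxa, fell by 12.9% to 55.0 ± 0.795 CPM in mutants, against 63.1 ± 3.92 CPM in controls (SD, n = 4 each), with an edgeR adjusted p of 0.041, and kept the call in 6 of 17 alternatives. The antisense RNA Hoxb5os was measured at 5.05, 5.47, 3.66 and 5.63 CPM in mutant replicates 1 to 4, against 6.60, 7.27, 7.12 and 6.93 CPM in control replicates 1 to 4. Its groups did not overlap, while Hoxb5 on the other strand did, and its log2 fold change of -0.49 (SE 0.126) did not pass (edgeR adjusted p = 0.0571). Hotair and Hottip, long noncoding RNAs of Hoxc and Hoxa, were at 0. Hoxb5os was chosen after its values were seen.

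Among the cell type markers, the sums for mesothelium and for neurons and neural crest did not overlap between the groups, and the other sums did. The 10 listed mesothelium markers summed to 256 to 295 CPM in mutants and 331 to 348 CPM in controls, without overlap. Of the 10, 4 were called lower (Wt1, Upk3b, Gpm6a and Lrrn4) and none higher, where 0.931% of all genes were called lower and 0.564% higher. Log2 fold changes were negative in 8 and positive in 2, Msln (0.19, SE 0.312) and Krt19 (0.08, SE 0.0616), which did not pass. Wt1, a transcription factor of mesothelium, averaged 12.2 ± 1.57 CPM in mutants and 19.7 ± 1.52 CPM in controls, and Upk3b, a uroplakin of the mesothelial surface, 57.0 ± 3.39 CPM in mutants and 88.4 ± 3.49 CPM in controls (SD, n = 4 each). The part of mesothelium in the lower Hoxb8, Hoxa7 and Hoxa6 was not tested, and no value here says which cells of the lung make these transcripts. Markers of neurons and neural crest summed to 42.4 to 49.9 CPM in mutants and 35.2 to 40.4 CPM in controls, also without overlap. Of the 8 tested, 1 was called higher (Ret) and none lower, with 6 log2 fold changes positive and 2 negative. Markers of motor neurons and spinal cord summed to 3.57 to 5.13 CPM in mutants and 2.82 to 5.33 CPM in controls. Those of cartilage summed to 124 to 141 CPM in mutants and 136 to 146 CPM in controls. Markers of skeletal muscle summed to 7.18 to 11.7 CPM in mutants and 6.61 to 8.06 CPM in controls, and those of heart muscle to 79.9 to 109 CPM in mutants and 58.1 to 95.8 CPM in controls. Markers of limb and body wall summed to 3.37 to 4.10 CPM in mutants and 2.65 to 3.64 CPM in controls, those of kidney and gonad to 0.287 to 0.513 CPM in mutants and 0.264 to 0.395 CPM in controls, and those of gut to 1.91 to 3.12 CPM in mutants and 2.01 to 2.43 CPM in controls. The gut marker Cdx2 and the kidney marker Pax8 were at 0 in all 8 libraries.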

How the data were processed

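Messenger RNA of E13.5 lung was sequenced from 4 mutant and 4 control libraries, made with a stranded Illumina kit per the labels' protocols. The authors deposited raw counts of read pairs per gene, with featureCounts 1.6.4, strand option 2 and GENCODE vM25, per the file headers. Reads shared by overlapping genes were left out. STAR, DESeq2 and build GRCm38 (mm10) are named in the submitters' processing notes. Symbols were paired with 55141 of 55401 gene IDs.

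All 8 libraries entered 1 fit in edgeR 4.0.16 (R 4.3.3): expression filter, TMM scaling, robust dispersion and a two-sided quasi-likelihood F test without covariates, adjusted by the Benjamini-Hochberg method over 15788 genes with a threshold of 0.05. Levels are CPM, or CPM per kilobase of deposited exon length. The steps were tested on simulated counts. No libraries within a group were duplicates. Alternatives used DESeq2 1.42.0, limma 3.58.1, sva 3.50.0, other scaling and filters, Y-linked covariates and single libraries left out.

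The members and the gene lists were chosen with earlier results of these data known. Values per library are given for Myrf, for Hox genes with an unadjusted p below 0.05, for the highest Hox genes of each cluster and for untested ones with counts in at least 4 libraries. Results of 1 Hox gene and 1 cofactor gene are not reported here, and counts and medians include them. Other lists are given by called genes and their most abundant members, and marker lists by their sums. Sequences are from RefSeq and 3′ UTRs from GENCODE vM21.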

Additional observations from a re-analysis of the deposited data

Results flagged for a closer look

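Among 64 groups of 4 libraries, 5 held a library that stood far from the other 3, where chance gives about 1 in 20. Hoxb5 was at 119.6 CPM in control replicate 4, while the other controls lay at 104 CPM. Hoxd8 was at 1.36 CPM in control replicate 3, against 0.451 to 0.528 CPM in the other controls. Hoxb1 was at 0.513 CPM in mutant replicate 1, against 0.0976 to 0.164 CPM in the other mutants. It was also at 0.158 CPM in control replicate 1, against 0.169 CPM in the other controls. Every control, replicate 1 included, holds 3 counts of Hoxb1, so that flag comes from library size alone. Hoxd10 was at 0.0205 CPM in mutant replicate 2, which is 1 count, and at 0 in the other mutants.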

How the results depend on the processing

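Hoxb8 was lower in all 17 alternatives, with log2 fold changes of -1.02 to -0.79 and adjusted p-values of 2.00e-13 to 0.000795. Hoxa6 (-0.81 to -0.61, adjusted p 0.000378 to 0.0552) and Hoxa7 (-0.93 to -0.72, adjusted p 6.07e-06 to 0.168) kept the call in 15 each. Against 3 Hox genes in the reported fit, 6 were called with no filter, 1 with the linear Y-linked covariate and 2 to 4 without single libraries. Against 236 genes in all, 791 were called with no filter, 142 without robust estimation, 95 and 68 with the log2 and linear Y-linked covariates, 106 with 1 surrogate variable and 96 to 479 without single libraries. The split of 89 higher and 147 lower genes became 52 and 43 with the log2 covariate, 39 and 29 with the linear one and 49 and 47 without control replicate 3. Polycomb and trithorax genes called were 3 with no filter and 0 to 2 without single libraries, against 1. Without length scaling Hoxa held 32.7% and Hoxb 65.9% of the Hox level in all libraries, against 41.5% and 57.1% with it. The causes were not tested, although fits without a library have fewer samples. With replicate number as a block, 6 Hox genes (Hoxb3, Hoxb4 and Hoxb6 added), 541 genes in all and 3 Polycomb or trithorax genes were called. Mutant and control libraries with the same number correlated at 0.0811, 0.0648, 0.181 and 0.0125, and those with different numbers at -0.171 to 0.133. Whether the numbers mark pairs was not tested, and the labels do not say. Low counts limit the untested members, and no detection limit was measured for them.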
